A study of Mus musculus with 9 samples.

Results

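The expressed genes of mouse chromosome 13 were followed along their position in NP53 cells and in G1C7 and G2C9, derivatives of NP53 that carry a knockout of TIM-3. A gene was taken as a member where its entry lies on chromosome 13 and its mean over the 9 libraries was 0.5 CPM (reads scaled to a common library total) or more, which held for 501 of the 2502 genes on the chromosome and of 55401 genes in all. Of these members 436 are protein coding, and 1198 genes of the chromosome had 0 reads in every library. Just inside the limit lay Hist1h1d at 0.502 and Gm47127 at 0.508 CPM, and just outside it Hist1h2bg at 0.494 and 2610307P16Rik at 0.496 CPM. Each member was placed by its midpoint into 1 of 8 windows of 15 Mb in the GRCm38 assembly, the build of the count files. The chromosome was chosen because its windows differ from the control along their position, so the window values and the counts of changed genes against Gcontrol are a description with no test of the chromosome as a whole.

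NP53 is a mouse tumour line of diffuse midline glioma (the labels also write DIPG), a childhood cancer of the brain stem and other midline structures. Gcontrol is labelled WT; G1C7 and G2C9 are both labelled TIM-3 knockout, and no treatment is given for any group. Havcr2 encodes TIM-3, a cell-surface checkpoint protein that restrains T cells. Each group has 3 libraries of polyadenylated RNA. The labels do not say whether each derivative is a single clone or whether the libraries of a group are separate cultures. The p-values therefore reflect nothing beyond the spread between these libraries, which may be technical.

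The 9 libraries held between 50110129 and 56035382 reads in genes. Havcr2, outside chromosome 13, had 74, 58 and 60 reads in Gcontrol, 55, 6 and 66 in G1C7 and 39, 30 and 28 in G2C9, and neither difference passed the test (adjusted p = 0.586 and 0.448). Of 5 markers of oligodendrocyte precursors and glioma, Olig1 and Olig2, which define the oligodendrocyte lineage, had 0 reads in every library and Sox10 at most 2. The other markers moved in opposite directions: Pdgfra rose from a mean of 248 CPM in Gcontrol to 385 in G1C7 and 448 in G2C9 (adjusted p = 0.0427 and 0.0160), and Cspg4 fell from 43.5 to 1.30 and 4.26 CPM (adjusted p = 3.45e-05 and 1.57e-04). Of 4 mesenchymal markers, Col1a1 had a mean of 2711, Col1a2 of 1601, Acta2 of 602 and Twist1 of 65.2 CPM in Gcontrol. Of 6 markers of neural stem cells and astrocytes, Vim had 1815, Nes 117, Sox2 69.5, Slc1a3 4.20 and Gfap 0.237 CPM there. Aqp4, the last of these, had 0 reads in every library. G1C7 replicate 2 and G2C9 replicate 3 stood apart: their members differed from the rest of their group by a median of 0.35 and 0.27 on the log2 scale, against 0.15 to 0.20 in the other derivative libraries and 0.06 to 0.09 in Gcontrol. The same 2 libraries had the highest Col1a1 of their groups, at 3521 and 2559 CPM against 1282 to 1423 CPM in the other derivative libraries. Col1a2 and Acta2 were also highest there. Twist1 was highest in G2C9 replicate 3 but lowest of its group in G1C7 replicate 2, at 57.5 CPM. The part of such genes in the results below was not tested. In bulk samples, fewer cells of a type and less RNA per cell cannot be told apart.

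Chromosome 13 carries genes of many unrelated functions, and several families lie on it in clusters. These include the replication-dependent histone genes, the prolactin-like hormones, the serpin B protease inhibitors, the Iroquois transcription factors and a large group of KRAB zinc-finger genes, which encode DNA-binding repressors best known for silencing transposable elements. Neighbouring genes are usually transcribed from separate promoters, so a shift shared by a long run of genes is read from the median of the run, and a single gene that leaves the run is read from its own values.

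Some single members left their run, entirely or in part, in 1 derivative and not, or to another extent, in the other. The stretch upstream of the first annotated base is shown for 5 of them, because these genes are among those with the largest fitted differences between G1C7 and G2C9 and the results return to them. That of Zfp273 is not shown, although its fitted log2 difference (4.68) is larger in size than that of 6720489N17Rik (-2.82). The bases were taken from RefSeq (GRCm38.p6), run 5′ to 3′ on the strand of the gene and end at the base before the gene's first annotated base in the count files. Capitals mark each CG, the dinucleotide that can carry DNA methylation and that reads the same on both strands.
Cap2: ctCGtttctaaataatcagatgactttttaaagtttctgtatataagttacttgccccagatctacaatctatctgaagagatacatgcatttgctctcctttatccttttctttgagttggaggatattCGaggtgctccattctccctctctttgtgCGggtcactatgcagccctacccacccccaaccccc
Dusp22: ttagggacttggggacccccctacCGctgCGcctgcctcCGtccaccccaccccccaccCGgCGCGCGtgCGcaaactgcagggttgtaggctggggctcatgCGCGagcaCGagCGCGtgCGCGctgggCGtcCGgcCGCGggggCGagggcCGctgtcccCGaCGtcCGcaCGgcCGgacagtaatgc
Amph: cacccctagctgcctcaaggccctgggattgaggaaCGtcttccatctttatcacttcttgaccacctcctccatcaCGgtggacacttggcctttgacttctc
Gm5141: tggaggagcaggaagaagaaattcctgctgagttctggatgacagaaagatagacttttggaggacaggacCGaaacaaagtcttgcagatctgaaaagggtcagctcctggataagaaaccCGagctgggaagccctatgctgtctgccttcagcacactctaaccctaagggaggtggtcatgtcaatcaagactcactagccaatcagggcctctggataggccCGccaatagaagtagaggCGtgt
6720489N17Rik: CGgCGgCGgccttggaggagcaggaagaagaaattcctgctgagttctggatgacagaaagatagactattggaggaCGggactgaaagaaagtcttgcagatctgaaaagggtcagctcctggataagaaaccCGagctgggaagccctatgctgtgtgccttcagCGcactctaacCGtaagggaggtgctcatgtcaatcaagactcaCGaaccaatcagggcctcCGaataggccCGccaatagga
The stretches lie at chr13:46501653-46501847, chr13:30659809-30659998 and chr13:18948101-18948204 on the plus strand and at chr13:62785809-62786058 and chr13:62624183-62624432 on the minus strand. The stretch of Dusp22 held 26 CG in 190 bases, a number reached by 3.32% of the promoters in the RefSeq table over the same positions. That of Cap2 held 3 CG in 195 bases (62.8% of promoters had as many or more), that of Amph 2 in 104 bases (55.2%), that of Gm5141 4 in 250 bases (62.2%) and that of 6720489N17Rik 10 in 250 bases (37.8%). The stretches of Gm5141 and 6720489N17Rik, close neighbours, were alike, with 226 identical bases in a global alignment. Of the 501 members, 390 had an entry in the table. Over stretches of 250 bases, the median was 6 CG for all promoters in the table and 17 for those of members. Members passed an expression limit and the table has none, so these medians compare unlike sets. The percentages above are also set against the whole table and not against members.

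The members' levels followed their position, and the course was similar in both derivatives. At the start of the chromosome members lay below Gcontrol; the median rose window by window, reached a plateau in the windows from 60 to 105 Mb, and returned to the level of all genes in the last window. These values are differences of log2(CPM + 0.5) from the mean of Gcontrol, less the median of all 13053 genes at 0.5 CPM or more, and a Gcontrol library was set against the other 2. The median of all 501 members was 0.21 in G1C7 and 0.23 in G2C9, and 332 and 330 members lay above 0. In the single libraries that median was 0.20, 0.21 and 0.21 in G1C7, 0.23, 0.24 and 0.17 in G2C9, and 0.00, 0.03 and -0.02 in Gcontrol. Both derivatives are set against the same Gcontrol libraries, so their likeness is in part shared and is given side by side only.

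**Figure D1:**
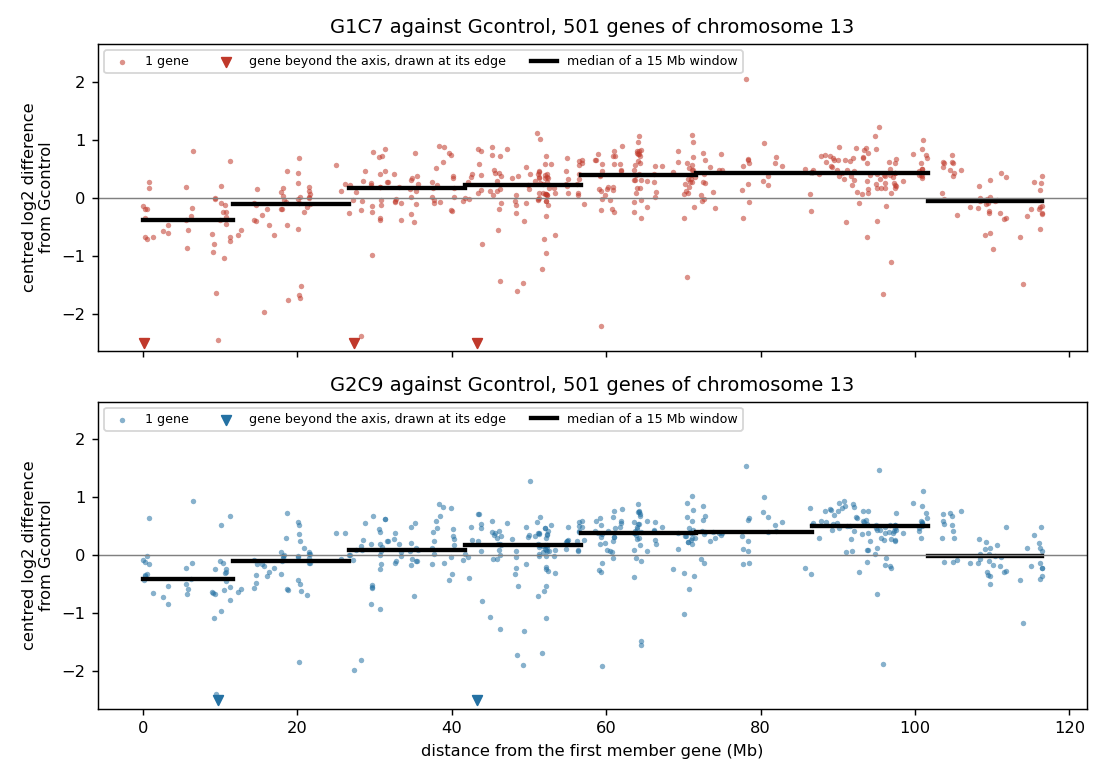
Centred log2 difference of each chromosome 13 member from Gcontrol (vertical axis) against its distance from the first member in Mb (horizontal axis), G1C7 above and G2C9 below; black bars are medians of 15 Mb windows, and triangles are genes beyond the axis, drawn at its edge. The bars run from -0.38 and -0.41 in the first window to 0.42 and 0.50 in the seventh, and the last lies at -0.06 and -0.02.

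In window 1 (0 to 15 Mb, 39 members) the median difference was -0.38, -0.46 and -0.41 in the G1C7 libraries and -0.35, -0.38 and -0.47 in the G2C9 libraries, against -0.01, 0.03 and -0.01 in Gcontrol. Every derivative library lay below every Gcontrol library there, and 32 and 35 of the 39 members were below 0 in G1C7 and G2C9. Window 2 (15 to 30 Mb, 44 members), which holds the histone cluster, had medians of -0.27, -0.12 and -0.20 in G1C7, -0.16, -0.08 and -0.13 in G2C9 and 0.01, 0.04 and -0.04 in Gcontrol. These derivative libraries too lay below all Gcontrol libraries, by less than in window 1.

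Window 3 (30 to 45 Mb, 67 members) was the first above 0, with 0.11, 0.15 and 0.11 in G1C7 and 0.10, 0.09 and 0.09 in G2C9. In window 4 (45 to 60 Mb, 96 members) the medians were 0.22, 0.22 and 0.26 in G1C7 and 0.19, 0.25 and 0.14 in G2C9, and 71 and 68 members lay above 0. The largest rise between 15 consecutive members and the next 15 fell inside this window, between Syk at 52.6 and Auh at 52.9 Mb, from -0.06 to 0.34 in G1C7 and from -0.03 to 0.33 in G2C9. Syk encodes a tyrosine kinase of immune receptors and Auh a mitochondrial enzyme of leucine breakdown. Such a rise was chosen as the largest of all positions, so its size is a description.

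Windows 5, 6 and 7 formed the plateau. Window 5 (60 to 75 Mb, 89 members) had medians of 0.39, 0.42 and 0.34 in G1C7 and 0.39, 0.42 and 0.31 in G2C9, and window 6 (75 to 90 Mb, 34 members) of 0.39, 0.38 and 0.37 in G1C7 and 0.47, 0.48 and 0.48 in G2C9. Window 7 (90 to 105 Mb, 83 members) had medians of 0.46, 0.36 and 0.48 in G1C7, 0.50, 0.54 and 0.43 in G2C9 and 0.00, 0.06 and -0.03 in Gcontrol. In window 7, 76 of 83 members lay above 0 in G1C7 and 75 in G2C9, against 7 and 4 of 39 in window 1. Of these 83 members, 4 and 3 differed from Gcontrol by more than 1 in either direction.

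**Figure D2:**
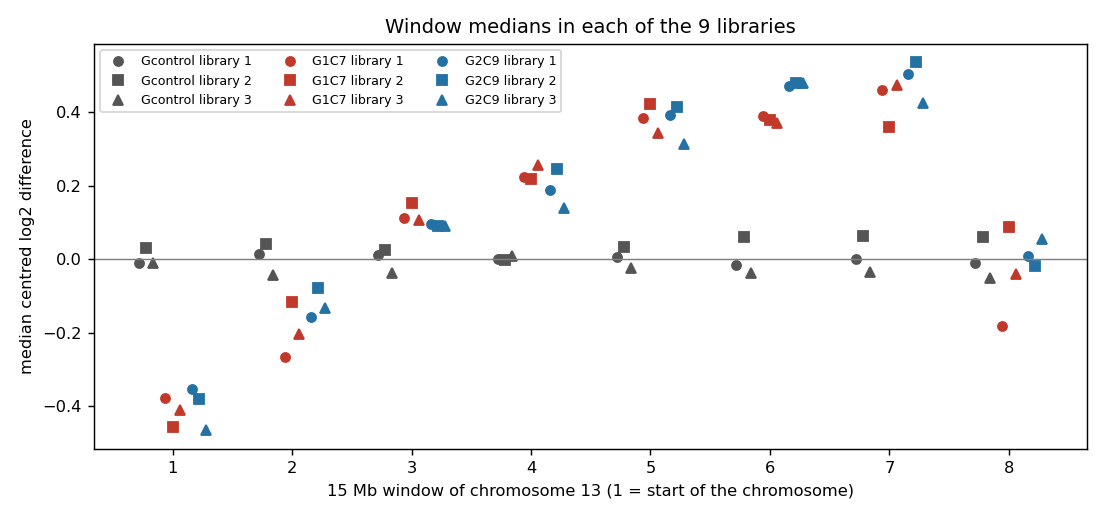
Median centred log2 difference (vertical axis) of the members of each 15 Mb window of chromosome 13 (horizontal axis, window 1 at the start of the chromosome) in each of the 9 libraries, coloured by group. The derivative libraries lie below Gcontrol in windows 1 and 2, above it in windows 3 to 7, where they reach 0.31 to 0.54 in windows 5 to 7, and mix with it in window 8.

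The plateau ended abruptly. In window 8 (105 to 120 Mb, 49 members) the medians were -0.18, 0.09 and -0.04 in G1C7, 0.01, -0.02 and 0.06 in G2C9 and -0.01, 0.06 and -0.05 in Gcontrol, so that the groups overlapped. The window holds both sides of a step: its 13 members up to Pde4d, a phosphodiesterase of cyclic AMP with its midpoint at 109.2 Mb, had medians of 0.48 in G1C7 and 0.53 in G2C9, whereas the 36 members from Plk2, a stress-induced kinase at 110.4 Mb, to the end had -0.16 and -0.11. The last 15 members up to Pde4d had medians of 0.53 and 0.53, and the first 15 from Plk2 on -0.11 and -0.10; of these, 13 and 12 before the step and 3 and 6 after it lay above 0. The fall was larger a little earlier: between Depdc1b and the pseudogene Rps3a3 it was -0.71 in G1C7 and -0.68 in G2C9, and 1 member before that, between Elovl7 at 108.25 Mb and Depdc1b, it was -0.71 and -0.66. The position of the step is therefore no closer than 108.25 to 110.4 Mb.

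**Figure D3:**
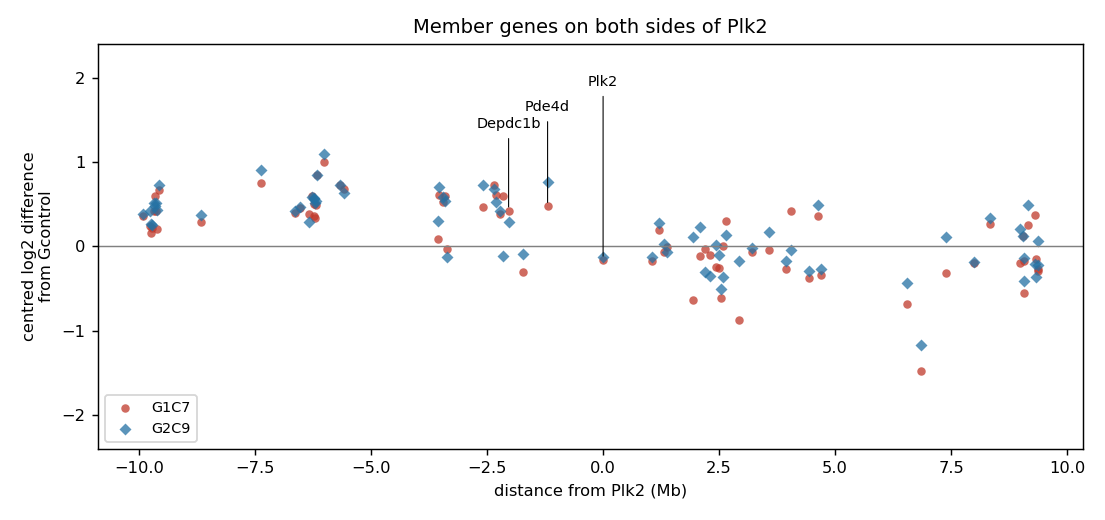
Centred log2 difference from Gcontrol (vertical axis) of the 72 members within 10 Mb of Plk2 against their distance from Plk2 in Mb (horizontal axis), circles for G1C7 and diamonds for G2C9. Most members left of Plk2 lie near 0.5, and those right of it scatter around a value slightly below 0.

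Read as 4 stretches, set after the windows had been seen, the chromosome had a low start, a middle, a high stretch and an end near or below 0. The 50 members before 20 Mb had a median of -0.39, -0.40 and -0.40 in the G1C7 libraries and -0.36, -0.38 and -0.45 in the G2C9 libraries. The 219 members from 60 Mb to Pde4d had 0.43, 0.39 and 0.43 in G1C7 and 0.46, 0.47 and 0.36 in G2C9, with 189 and 187 members above 0. The 196 members between them had medians of 0.13 and 0.10 over the groups. From Plk2 to the end the G1C7 libraries gave -0.25, 0.04 and -0.18 and the G2C9 libraries -0.07, -0.07 and -0.12. The Gcontrol libraries gave -0.01, 0.07 and -0.06 there, close to G2C9. The value of 0.04 belongs to G1C7 replicate 2, the library that stood apart, and lies within the span of Gcontrol.

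The high stretch had medians above 0 in each class of member examined. It was set after its values had been seen, so these medians describe the stretch and are no separate support for it. Its 182 protein-coding members had medians of 0.44 and 0.43 in G1C7 and G2C9, and its 37 members of other types 0.22 and 0.30. Members on the plus strand had 0.37 and 0.38 and those on the minus strand 0.46 and 0.44. Split by mean CPM into 3 classes of equal size over all members, the class of low level had 0.31 and 0.26, that of middle level 0.51 and 0.52 and that of high level 0.43 and 0.49. The pseudocount draws the difference of low genes towards 0.

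The shares of reads, which weight each gene by its abundance, took the same course. Genes before 20 Mb gave 0.316, 0.320 and 0.314% of reads in Gcontrol, 0.226, 0.228 and 0.223% in G1C7 and 0.243, 0.240 and 0.218% in G2C9. The stretch from 60 Mb to Pde4d gave 0.920, 0.933 and 0.904% in Gcontrol, 1.30, 1.20 and 1.30% in G1C7 and 1.30, 1.30 and 1.24% in G2C9. In both stretches no derivative library overlapped Gcontrol. From Plk2 to the end the shares were 0.162, 0.163 and 0.163%, 0.141, 0.179 and 0.142% and 0.165, 0.160 and 0.153%, and G1C7 replicate 2 and G2C9 replicate 1 lay above Gcontrol while the other 4 derivative libraries lay below it. All genes of the chromosome together gave 2.55% to 2.6% of reads in Gcontrol, 2.93% to 3.05% in G1C7 and 2.90% to 3.08% in G2C9.

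**Figure D4:**
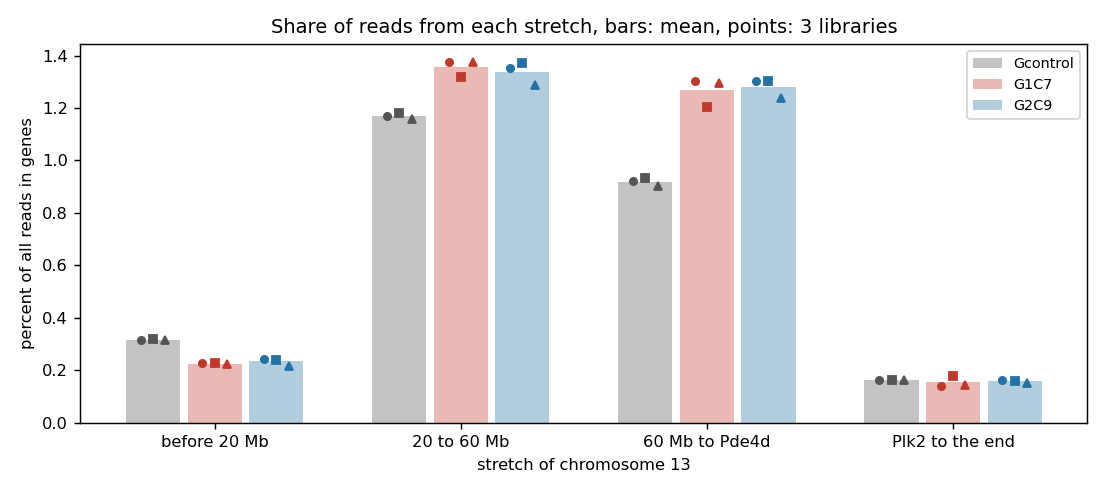
Percent of all reads in genes (vertical axis, from 0) that came from members of 4 stretches of chromosome 13 (horizontal axis); bars are group means and points the 3 libraries of each group. In the stretch from 60 Mb to Pde4d Gcontrol spans 0.904% to 0.933% and the 6 derivative libraries span 1.20% to 1.30%.

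Other chromosomes also had shifted medians, but none had as wide a spread between its own windows. Since chromosome 13 was chosen for how its windows differ, this comparison is a description. The range of window medians on chromosome 13 was 0.81 in G1C7 and 0.91 in G2C9, and on the other 19 chromosomes with 2 or more windows it lay between 0.12 and 0.56 in G1C7 and between 0.14 and 0.57 in G2C9. By the median of all its genes, chromosome 13 ranked 3 of 20 from the highest in G1C7 and 2 in G2C9. Single windows elsewhere reached similar levels: of 173, 2 lay above window 7 in G1C7 and 1 in G2C9, and 6 and 1 lay below window 1.

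Tested gene by gene against Gcontrol with edgeR's quasi-likelihood test, fitted over 15659 genes, 153 of the 501 members passed an adjusted p of 0.05 in G1C7, 120 of them higher and 33 lower. The background over all tested genes was 17.5% called, 8.77% higher and 8.73% lower, against 30.5%, 24.0% and 6.59% of the members. In G2C9 149 members passed, 111 higher and 38 lower, that is 29.7%, 22.2% and 7.58% of members against 13.5%, 6.25% and 7.22% of all genes. Nothing is read from these shares, since the same contrast led to the choice of the chromosome. The libraries of 284 members did not overlap between G1C7 and Gcontrol (56.7%, against 45.7% of all genes at 0.5 CPM or more), and those of 307 between G2C9 and Gcontrol (61.3%, against 46%).

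The calls were counted in each of the 4 stretches, which hold 50, 196, 219 and 36 members in order. Over all tested genes, 8.77% were called higher and 8.73% lower in G1C7, and 6.25% and 7.22% in G2C9. The stretches were set after the windows had been seen, so the counts are a description beside these shares. Before 20 Mb, 1 member rose and 18 fell in G1C7, and 3 rose and 18 fell in G2C9. From 20 to 60 Mb, 31 rose and 9 fell in G1C7, and 24 rose and 13 fell in G2C9. From 60 Mb to Pde4d, 88 rose and 3 fell in G1C7, and 83 rose and 6 fell in G2C9. From Plk2 to the end, 0 rose and 3 fell in G1C7 and 1 rose and 1 fell in G2C9; without the 2 libraries that stood apart, 4 rose and 20 fell, and 7 rose and 10 fell. The counts turned on single libraries. Without Gcontrol replicate 1, 2 or 3, 73, 80 and 75 members passed in G1C7 and 63, 73 and 64 in G2C9; without G2C9 replicate 1 or 2, 84 and 79 passed in G2C9; without G1C7 replicate 2, 227 and 246 passed in G1C7 and G2C9. Without both libraries that stood apart 353 and 357 passed, among them all 153 and all 149. The share of all tested genes called in these refits is not given here, so nothing about the chromosome is read from their counts.

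Below, members are named whose calls held without each of the 9 libraries in turn, unless another outcome is given; they were chosen with this known. At the start of the chromosome, Klf6 (ENSMUSG00000000078.7, chr13:5861482-5870394, plus strand), a zinc-finger transcription factor induced by growth signals, stood at 160.2, 171 and 164 CPM in Gcontrol, at 114, 112 and 108 in G1C7 and 103, 106 and 91.7 in G2C9. All 6 derivative libraries lay below all Gcontrol libraries, and the log2 fold change was -0.57 ± 0.08 (± SE) in G1C7 and -0.73 ± 0.08 in G2C9 (adjusted p = 0.00232 and 9.96e-04). Larp4b, which binds and stabilises messenger RNA, had 115, 112 and 119 CPM in Gcontrol, 84, 71.8 and 81.7 in G1C7 and 80, 79.1 and 72.8 in G2C9. The log2 fold changes were -0.55 ± 0.09 and -0.58 ± 0.09 (adjusted p = 0.00391 and 0.00350).

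Psma2 and Mrpl32 lie head to head near 14.6 Mb and encode a subunit of the proteasome core and a protein of the mitochondrial ribosome. Psma2 (ENSMUSG00000015671.11, chr13:14613240-14674236, plus strand) had 205, 215 and 191 CPM in Gcontrol, 125, 125 and 131 in G1C7 and 131, 140.0 and 145 in G2C9. It fell by 0.68 ± 0.08 in G1C7 and 0.56 ± 0.08 in G2C9 on the log2 scale (adjusted p = 0.00108 and 0.00311), with no overlap of libraries. Mrpl32 had 30.7, 30.3 and 26 CPM in Gcontrol, 18, 15.4 and 18.3 in G1C7 and 17.4, 17.5 and 15.7 in G2C9, and its log2 fold changes were -0.75 ± 0.11 and -0.78 ± 0.11 (adjusted p = 0.00302 and 0.00302).

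Other members in the first 60 Mb fell to far below the median of their window, which was above 0 in windows 3 and 4. Btn1a1, a butyrophilin of the milk-fat membrane beside the histone cluster, had 4.93, 4.32 and 4.85 CPM in Gcontrol, 0.673, 1.82 and 1.10 in G1C7 and 1.11, 0.938 and 0.800 in G2C9. Foxq1, a forkhead transcription factor, had 13.7, 13 and 12.9 CPM in Gcontrol, 1.61, 3.35 and 1.77 in G1C7 and 2.91, 3.35 and 4.10 in G2C9, and fell by 2.56 ± 0.29 and 1.94 ± 0.28 on the log2 scale (adjusted p = 9.65e-04 and 0.00322); an annotated gene on the other strand that shares 66.1% of its exon bases had 0 reads. Both derivatives were far below Gcontrol for each of these genes. Omd, which encodes osteomodulin, a leucine-rich proteoglycan of bone matrix, had 2.62, 2.79 and 2.10 CPM in Gcontrol, 0.561, 0.619 and 0.657 in G1C7 and 0.772, 0.653 and 0.800 in G2C9. Sema4d, a semaphorin that signals through plexin B receptors, had 1.39, 1.29 and 1.43 CPM in Gcontrol, 0.0748, 0.127 and 0.146 in G1C7 and 0.0198, 0.0204 and 0.176 in G2C9. Omd fell by 2.03 ± 0.22 and 1.75 ± 0.22, and Sema4d by 3.53 ± 0.61 and 4.19 ± 0.65, on the log2 scale in G1C7 and G2C9. In the derivative libraries 6 reads give about 0.108 to 0.120 CPM. The fold changes of Sema4d therefore rest on few reads there, and their size is uncertain. Prl2c2, of the prolactin-like family, fell by 2.44 ± 0.30 and 2.75 ± 0.30; it has a near-identical neighbour, and since reads with several positions were dropped its level is uncertain.

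Txndc5, in window 3 with its median of 0.16 in G1C7 and 0.10 in G2C9, rose. It encodes a disulfide isomerase of the endoplasmic reticulum and lies at 38.5 Mb. Its level was 387, 387 and 389 CPM in Gcontrol, 664, 664 and 668 in G1C7 and 571, 569.5 and 567 in G2C9, with little spread in any group. The log2 fold change was 0.78 ± 0.07 in G1C7 and 0.55 ± 0.07 in G2C9 (adjusted p = 3.48e-04 and 0.00168).

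In the high stretch, Ctsl (ENSMUSG00000021477.9, chr13:64359337-64370890, minus strand), the lysosomal protease cathepsin L, had 820.4, 830.4 and 783 CPM in Gcontrol, 1503, 1260.3 and 1526 in G1C7 and 1274, 1338 and 1521 in G2C9. The groups did not overlap, and its log2 fold changes were 0.82 ± 0.11 and 0.76 ± 0.11 (adjusted p = 0.00185 and 0.00294). Ap3b1, a subunit of the adaptor that sorts proteins to lysosome-related organelles, had 71.2, 67.9 and 73.1 CPM in Gcontrol, 98.4, 101 and 97.2 in G1C7 and 101, 99.8 and 102 in G2C9, a log2 fold change of 0.49 ± 0.07 and 0.52 ± 0.07. Cox7c, a small subunit of cytochrome c oxidase, rose by 0.56 ± 0.10 and 0.57 ± 0.10 on the log2 scale. F2r, the thrombin receptor PAR1, had 156, 159 and 158 CPM in Gcontrol, 278, 306 and 282 in G1C7 and 239, 239.7 and 270.2 in G2C9. It rose by 0.87 ± 0.08 and 0.66 ± 0.08 (adjusted p = 4.28e-04 and 0.00160).

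In the same stretch, Cenpk, a kinetochore protein of the constitutive centromere network, had 19.8, 21.1 and 17.4 CPM in Gcontrol, 34, 34 and 38.2 in G1C7 and 34.7, 41.5 and 30.7 in G2C9, and rose by 0.87 ± 0.13 and 0.88 ± 0.13 on the log2 scale. Cenph, of the same network, rose by 0.43 ± 0.08 and 0.53 ± 0.08. Kif2a, a kinesin that depolymerises microtubules, had 94.7, 93.3 and 86.2 CPM in Gcontrol, 136, 148 and 134 in G1C7 and 128, 136 and 134 in G2C9, a rise of 0.61 ± 0.08 and 0.54 ± 0.08. Its neighbour Dimt1, an RNA methylase of ribosome assembly, rose by 0.54 ± 0.09 and 0.60 ± 0.09. The pair overlap on opposite strands by 1229 exon bases, and strand was not used in counting, so reads there were dropped for both. In all 4 genes every derivative library lay above every Gcontrol library.

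Adgrv1 and Tmem171, in the high stretch, rose by more than the run around them, and the other genes given next rose closer to its level. Adgrv1, a very large adhesion receptor of sensory hair cells, stood at 0.628, 0.406 and 0.300 CPM in Gcontrol, 3.72, 3.09 and 3.34 in G1C7 and 2.45, 1.92 and 2.36 in G2C9. The log2 fold change was 2.92 ± 0.29 in G1C7 and 2.33 ± 0.29 in G2C9 (adjusted p = 5.39e-04 and 0.00160). Tmem171, a membrane protein, had 10.8, 11.6 and 12 CPM in Gcontrol, 26.3, 30.3 and 25.7 in G1C7 and 34, 35.4 and 29.2 in G2C9, and rose by 1.26 ± 0.11 and 1.52 ± 0.11. Homer1, a scaffold of glutamate receptors, rose by 0.66 ± 0.09 and 0.77 ± 0.09, and Zbed3, an axin-binding zinc-finger protein, by 0.71 ± 0.13 and 0.90 ± 0.13. In each, no derivative library overlapped Gcontrol. Smim15, a small membrane protein and one of the last genes before the step, had 49.8, 54.9 and 47.1 CPM in Gcontrol, 76, 95.5 and 83.1 in G1C7 and 75.2, 83 and 86 in G2C9, a rise of 0.75 ± 0.11 and 0.69 ± 0.11.

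Of the 36 members beyond the step, 3 fell in G1C7, and 1 rose and 1 fell in G2C9. Over all tested genes, 8.73% were called lower in G1C7, and 6.25% higher and 7.22% lower in G2C9. Nothing about the stretch is read from so few calls. Parp8, a mono-ADP-ribosyltransferase at 116.9 Mb, had 24.5, 23.6 and 24.5 CPM in Gcontrol. Its level was 15.3, 15.3 and 14.3 CPM in G1C7 and 16.1, 16.6 and 21.3 in G2C9. It fell by 0.70 ± 0.12 on the log2 scale in G1C7 (adjusted p = 0.00565). In G2C9 its change of -0.43 ± 0.12 passed narrowly (adjusted p = 0.0486) and did not pass without any 1 of 7 libraries, those of Gcontrol, G1C7 replicates 1 and 3 and G2C9 replicates 1 and 2 (highest adjusted p = 0.173). The other members that fell there in G1C7 were BC067074 (-1.26 ± 0.28), not called without G1C7 replicate 3 or any 1 Gcontrol library (highest adjusted p = 0.0780), and Mocs2 (-0.37 ± 0.11), called without G1C7 replicate 2 or G2C9 replicate 3 but not without any 1 of the other 7 (highest adjusted p = 0.144) and named after its values were seen. The 1 member that rose there in G2C9 is Fgf10, a growth factor of branching organs, whose log2 fold change of 0.35 ± 0.09 (adjusted p = 0.0423) passed without G1C7 replicate 2 or G2C9 replicate 1 but not without any 1 of the other 7 libraries (highest adjusted p = 0.171).

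The members were also grouped by role. The role lists were drawn up with earlier results of these data known and cover chromosome 13 only. Over all 501 members, 24.0% were called higher and 6.59% lower in G1C7, and 22.2% and 7.58% in G2C9. Over all tested genes, 8.77% were called higher in G1C7 and 6.25% in G2C9. The counts per list are a description beside these shares, and no result about a role is read from them. Of 24 members for cell cycle and DNA repair, 10 rose and 0 fell in each derivative, with medians of 0.37 and 0.42 against 0.21 and 0.23 over all members. All of the 10 that rose in G1C7 except Kif13a, at 46.8 Mb, lie in the high stretch; Kif13a did not pass in G1C7 without G1C7 replicate 1 or any 1 Gcontrol library (highest adjusted p = 0.0704). Cks2, a cyclin-dependent kinase subunit at 51.6 Mb, gave -0.12 ± 0.08 and -0.03 ± 0.08, and Cdk13 at 17.8 Mb -0.08 ± 0.13 and -0.07 ± 0.13, and neither passed. Ccnh, the cyclin of the kinase that activates other cyclin-dependent kinases, rose by 0.61 ± 0.10 in G1C7; in G2C9 it rose by 0.52 ± 0.10 (adjusted p = 0.0107), which did not pass without Gcontrol replicate 1 or 3 (highest adjusted p = 0.0551).

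Of 22 members for the ribosome and translation, 6 rose and 3 fell in G1C7 and 4 rose and 4 fell in G2C9. The 3 that fell in G1C7, Mrpl32, Larp4b and Gtpbp4, lie before 20 Mb, and the 6 that rose lie from Nol7 at 43.4 Mb on. In G2C9 the 4 that fell were these 3 and Mrpl36, a mitochondrial ribosomal protein at 73.3 Mb in the high stretch, with a log2 fold change of -1.05 ± 0.14 (adjusted p = 0.00241) in G2C9 and -0.35 ± 0.14 (adjusted p = 0.127) in G1C7. In G1C7 the call of Gtpbp4 was lost without any 1 Gcontrol library (highest adjusted p = 0.0710), and in G2C9 without any library but G1C7 replicate 2 (highest adjusted p = 0.161). Of 27 members for metabolism, 8 rose and 1 fell in each derivative; the gene that fell, Mtr, the cobalamin-dependent methionine synthase, lies at 12.2 Mb, and its call was lost in G1C7 without G1C7 replicate 1 or 3 or any 1 Gcontrol library (highest adjusted p = 0.117) and in G2C9 without any library but G1C7 replicate 2 (highest adjusted p = 0.134). Of 18 members for the proteasome, trafficking and the lysosome, 4 rose and 3 fell in each derivative, and the 3 that fell in each lie before 20 Mb. Medians of these 3 lists were 0.03, 0.28 and 0.02 in G1C7 and 0.17, 0.26 and 0.12 in G2C9.

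Of 26 members for transcription factors and chromatin, 5 rose and 4 fell in G1C7 and 4 rose and 5 fell in G2C9, with medians of 0.14 and -0.03. Of 24 for growth factor and patterning signals, 2 rose and 3 fell in G1C7 and 4 rose and 3 fell in G2C9 (medians 0.13 and 0.16). Of 19 neural and cytoskeletal members, 4 rose and 2 fell in G1C7 and 3 rose and 2 fell in G2C9 (medians 0.08 and 0.07). Of 8 for extracellular matrix and adhesion, Omd fell in both derivatives, 0 rose in G1C7 and 2 rose in G2C9 (medians 0.22 and 0.25). Of the 6 serpin B members 0 passed in either derivative with edgeR, 0 had an unadjusted p under 0.05, and DESeq2 and limma-voom called 0. Of the 5 histone-named members 1, Hist1h4i, fell in G1C7; these counts of histone genes come from polyadenylated RNA, which holds little replication-dependent histone mRNA.

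The zinc-finger genes whose names begin with Zfp were considered together, beside the shares of all members called. Zinc-finger genes under other names were not gathered, so the counts are those of a name and not of the whole family. Those shares were 24.0% higher and 6.59% lower in G1C7, and 22.2% and 7.58% in G2C9. Of 29 members named Zfp, 14 rose and 0 fell in G1C7, with a median of 0.60, and 9 rose and 3 fell in G2C9, with a median of 0.40. Of these, 24 lie between 60 and 75 Mb, where their medians were 0.68 and 0.43 against 0.30 and 0.33 for the 65 other members of that window. Any zinc-finger gene under another name is among those other members. The 3 that fell in G2C9 were Zfp493, Zfp273 and, outside this block at 22 Mb, Zfp184, named after their values were seen; Zfp184 was not called without G1C7 replicate 3, G2C9 replicate 1 or 2 or any 1 Gcontrol library (highest adjusted p = 0.121). Zfp87, at 67.5 Mb, had 4.73, 4.08 and 3.84 CPM in Gcontrol, 7.70, 11.9 and 8.93 in G1C7 and 7.03, 8.87 and 6.73 in G2C9. It rose by 1.17 ± 0.20 in G1C7 (adjusted p = 0.00561); in G2C9 the change of 0.84 ± 0.20 (adjusted p = 0.0264) did not pass without G2C9 replicate 1 or 2 or any 1 Gcontrol library (highest adjusted p = 0.109). These genes are similar to each other, and reads that map to several of them were dropped, so single levels are uncertain.

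Compared directly, G1C7 and G2C9 differed in 17 of 501 members, 10 higher and 7 lower in G1C7. That is 3.39% of members, near the 3.36% of all tested genes, of which 1.71% were higher and 1.65% lower. The libraries of 93 members did not overlap between them (18.6%, against 19.1% of all genes). Among the 17, 7 held in each fit without 1 library. The count was 8 and 7 without G2C9 replicate 1 or 2, 10 without G1C7 replicate 3, 11 without any 1 Gcontrol library and 43 without G1C7 replicate 2. Without both libraries that stood apart 139 passed, among them all 17. The share of all tested genes called in these refits is not given here, so nothing about the members is read from the counts.

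Cap2 (ENSMUSG00000021373.16, chr13:46501848-46650281, plus strand), which encodes a regulator of actin filaments, had 904, 940 and 979 reads in Gcontrol, 0 in all 3 libraries of G1C7 and 20, 21 and 22 in G2C9, or 16.7, 17.4 and 17.3 CPM in Gcontrol and 0.396, 0.428 and 0.429 in G2C9. Against the limit that a count of 0 allows, 6 reads or 3 read pairs over the group, its level was at least 465-fold lower in G1C7 than in Gcontrol and at least 11.4-fold lower than in G2C9. In G2C9 the log2 fold change was -5.35 ± 0.18 (adjusted p = 3.37e-05). Its neighbours did not share this: 5033430I15Rik before it differed by 0.41 and 0.26 from Gcontrol in G1C7 and G2C9, and Fam8a1 after it by 0.84 and 0.70, on the centred scale.

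Dusp22 (ENSMUSG00000069255.13, chr13:30659999-30711231, plus strand), a phosphatase of the JNK pathway, had 160, 162 and 204 reads in Gcontrol, 0 in all 3 G1C7 libraries and 12, 16 and 42 in G2C9. It was thus at least 86.7-fold lower in G1C7 than in Gcontrol and at least 12.6-fold lower than in G2C9. In G2C9 its fall of 2.78 ± 0.48 on the log2 scale passed (adjusted p = 0.0128) but not without G2C9 replicate 2 or any 1 Gcontrol library (highest adjusted p = 0.0581). Its neighbours Uqcrfs1 and Exoc2 gave -0.04 and 0.09 in G1C7 and -0.09 and 0.09 in G2C9 on the centred scale. The next member after Exoc2 is Foxq1, which fell in both derivatives. The stretch upstream of Dusp22 is the one rich in CG, and that of Cap2 is not.

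Amph (ENSMUSG00000021314.13, chr13:18948205-19150921, plus strand), which encodes amphiphysin, a protein of endocytosis in nerve terminals, was low in G1C7 alone. It had 92, 72 and 90 reads in Gcontrol, 0, 2 and 1 in G1C7 and 60, 68 and 68 in G2C9. With 3 reads in all, the level in G1C7 was 83.7-fold lower than in Gcontrol (95% counting interval in read pairs, 19.2 to 1175) and 70.7-fold lower than in G2C9 (16.1 to 995); the direct comparison passed (adjusted p = 6.05e-04). In G2C9 against Gcontrol the log2 fold change was -0.24 ± 0.33 (adjusted p = 0.704). The lincRNA 2810429I04Rik near the start of the chromosome, named after its values were seen, showed the same order, with 194, 212 and 207 reads in Gcontrol, 0, 4 and 2 in G1C7 and 130, 137 and 133 in G2C9.

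Gm5141 (ENSMUSG00000091183.5, chr13:62772200-62785808, minus strand) showed the reverse. It had 87, 89 and 59 reads in Gcontrol, 115, 168 and 111 in G1C7 and 0, 1 and 0 in G2C9. From 1 read, the level in G2C9 was 364-fold lower than in G1C7 (95% counting interval in read pairs, 38.5 to 372053), and the comparison passed (adjusted p = 3.59e-04). 6720489N17Rik, whose upstream stretch is nearly the same, went the other way, at 5.88, 6.45 and 5.31 CPM in Gcontrol, 0.337, 2.13 and 0.694 in G1C7 and 6.91, 8.0 and 7.52 in G2C9. The derivatives differed (adjusted p = 0.0278) but not without G1C7 replicate 3, G2C9 replicate 1 or 2 or any 1 Gcontrol library (highest adjusted p = 0.103). Both genes were named after their values were seen, and their likeness leaves their single levels uncertain.

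Zfp493 and Zfp273, near each other in the zinc-finger block, were low in G2C9. Zfp493 had 2.16, 1.85 and 2.03 CPM in Gcontrol, 2.45, 3.09 and 2.37 in G1C7 and 0.356, 0.449 and 0.390 in G2C9, and differed by 2.72 ± 0.23 on the log2 scale between G1C7 and G2C9 (adjusted p = 5.47e-04). Zfp273 had 42, 61 and 70 reads in Gcontrol, 24, 58 and 38 in G1C7 and 0, 0 and 4 in G2C9. Zfp85, the member just before Zfp493, gave 0.82 in G1C7 and 0.40 in G2C9 on the centred scale, Gm9625 between them -0.04 and -0.10, and Mtrr after Zfp273 -0.17 and 0.07. Zfp493 and Zfp273 fell in G2C9 against Gcontrol, and neither passed in G1C7 (adjusted p = 0.233 and 0.601). They too were named after their values were seen.

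Arhgef28, in the high stretch, rose in G1C7 alone. It stood at 21.7, 20.1 and 21.3 CPM in Gcontrol, 43.7, 45.4 and 44.3 in G1C7 and 24.8, 21.6 and 18.5 in G2C9. The G1C7 libraries lay above all others, whereas G2C9 overlapped Gcontrol. The log2 difference between G1C7 and G2C9 was 1.04 ± 0.11 (adjusted p = 0.00217), and G2C9 against Gcontrol gave 0.04 ± 0.11 (adjusted p = 0.872).

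**Figure D5:**
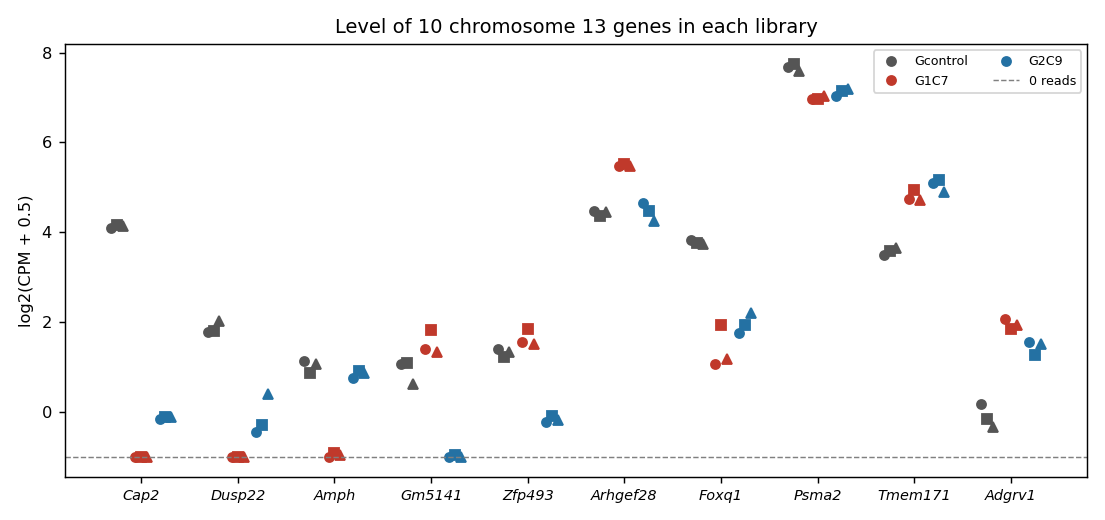
Level of 10 chromosome 13 genes as log2(CPM + 0.5) (vertical axis) in each of the 9 libraries, coloured by group, with the marker shape giving the library number; the dashed line marks 0 reads. Cap2 and Dusp22 lie on the line in all 3 G1C7 libraries, Amph on or beside it in G1C7 and Gm5141 in G2C9, while Psma2 is lower and Tmem171 higher than Gcontrol in both derivatives.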

How the data were processed

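RNA was sequenced as 9 stranded poly(A) libraries, 3 per group, per the labels' protocols. The deposited values are raw counts of reads per gene that the authors made with featureCounts 1.6.0 on GENCODE vM25, per the file headers; alignment with STAR 2.6.1c to GRCm38 is given in the submitters' processing notes. The command lines in 9 of 9 headers set none of the options for read pairs, strandedness, multi-mapping or overlapping genes. Each mate therefore counted by itself on either strand, and ambiguous or multi-mapped reads were not counted. Symbols and gene types came from a GENCODE vM21 reference (55141 of 55401 IDs matched). Library totals lay between 50110129 and 56035382; for genes with few reads, intervals and limits cover counting error only.

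All 9 libraries entered 1 edgeR 4.0.16 quasi-likelihood fit (R 4.3.3; TMM factors 0.978 to 1.03; filterByExpr, 15659 genes; robust), and the 3 contrasts between groups were tested with Benjamini-Hochberg adjustment over all tested genes. All 501 members were tested. CPM in the text use TMM-scaled totals, ± is the SE for log2 fold changes, and the member rule used unscaled totals. In a test on simulated data, 100 genes were altered 2-fold and 100 others 4-fold, of which 52 and 91 were recovered for G1C7 (7 of 150 calls false, 15318 genes) and 51 and 91 for G2C9 (7 of 149, 15323 genes). Alternatives were RLE factors, no filter, DESeq2 1.42.0, limma-voom (limma 3.58.1), a replicate block, each library left out, both libraries that stand apart left out, other expression limits and other windows. Window values were computed in Python 3.11.15.

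Named genes are members of 9 role lists, the 2 most abundant protein-coding genes per window, up to 2 called genes per window, derivative and direction with the largest change (protein coding, 1 CPM or more, no overlap, no Gm or Rik name), genes at 0 reads in a derivative with 60 or more in Gcontrol, and those at the expression limit; others are marked. Members, lists and tests were chosen with earlier results of these data known. Of the 32 metabolism genes, Ero1b was not found under that symbol and was left out.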

Additional observations from a re-analysis of the deposited data

Results flagged for a closer look

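The effect of the 2 derivatives, each against the same Gcontrol libraries, differed in 17 members by the direct comparison of G1C7 with G2C9 (edgeR, Benjamini-Hochberg adjusted p under 0.05), and the values are log2 differences of G1C7 from G2C9. In 7 of them the call held without each library in turn. They were -7.48 for Cap2 and -7.63 for Dusp22, which had 0 reads in G1C7 so that the fitted size depends on the prior count, -5.98 for Amph, -6.09 for 2810429I04Rik, 8.07 for Gm5141, 2.72 for Zfp493 and 1.04 for Arhgef28.

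In the other 10 the call was lost without 1 or more single libraries. Gpr137b (1.21) lost it without G2C9 replicate 2 (adjusted p = 0.0510), and Syk (0.96) and Irx1 (0.69) without G2C9 replicate 1 or 2 (highest adjusted p = 0.0673 and 0.0721). Phactr1 (1.36) lost it without replicate 1 or 3 of G1C7 or replicate 1 or 2 of G2C9 (highest 0.0704). Zfp273 (4.68) and 6720489N17Rik (-2.82) lost it without G1C7 replicate 3, G2C9 replicate 1 or 2 or any 1 Gcontrol library (highest 0.0758 and 0.103). Irx2 (0.42) and Lhfpl2 (-0.63) held only without G1C7 replicate 2 or G2C9 replicate 3 (highest 0.105 and 0.140), and Mrpl36 (0.70) and Fgd3 (-0.78) only without G1C7 replicate 2 (highest 0.129 and 0.143). Gpr137b, Syk, Fgd3 and Lhfpl2 were named after their values were seen.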

How the results depend on the processing

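The count of called members moved with the libraries and less with the tool. With the 2 libraries that stood apart removed it was 353 for G1C7, 357 for G2C9 and 139 between the derivatives; leaving out 1 library gave 73 to 227, 63 to 246 and 7 to 43. DESeq2 called 37 members between the derivatives. For none of these alternatives is the share of all tested genes given, so the counts have no background beside them. Under RLE factors, no filter, limma-voom and a limit of 1 CPM each count stayed within 1.5 times the reported one, as did DESeq2 against Gcontrol (205 and 195). The deviations of same-numbered libraries correlated at -0.72 to 0.62. G1C7 replicate 2 and G2C9 replicate 3, which stood apart, carry different numbers and deviated together (0.77). This check therefore cannot tell whether the numbers pair the libraries. With the replicate block 95, 80 and 9 members were called.

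The chromosome's median was 0.13 in G1C7 and 0.12 in G2C9 with members at 0.1 CPM or more, and 0.16 in both as a mean; without 1 library it was 0.19 to 0.23 and 0.20 to 0.24. The range of window medians in G1C7 was 0.85 at 1 CPM or more, 0.71 at 0.1 CPM or more, 0.85 with a pseudocount of 0.1, 0.85 for protein-coding members, 0.87 for means, 0.86 in 10 Mb windows and 0.96 in windows moved by 7.5 Mb, and 0.79 to 0.84 without 1 library. In G2C9 it was 0.77 at 0.1 CPM or more, 0.97 for protein-coding members and 0.78 over the 4 stretches, an alternative chosen after seeing the data, and 0.88 to 0.93 without 1 library. Windows 1 to 7 kept their sign in all 15 settings, and window 8 changed it in 1 for G1C7 and 5 for G2C9. Over single named genes, 1288 of 1425 values kept direction and call, 133 lost the call, 4 gained one and 0 reversed.

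Genes near 0.5 CPM rest on few reads, and mates of a pair were counted separately, so their counting error is larger than the read numbers show.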
